A study of Mus musculus with 14 samples.

Results

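The miR-30 family was measured in mouse corpus callosum, the large white matter tract that joins the hemispheres, while myelin was lost and rebuilt. Its members were taken by name from the arrays as mmu-miR-30a, mmu-miR-30b, mmu-miR-30c, mmu-miR-30d and mmu-miR-30e (miR-30a to miR-30e below), without the other strands of their hairpins, which gave 5 of the 566 mouse miRNAs on the array. Cuprizone, a copper chelator that kills oligodendrocytes and so strips myelin, was mixed at 0.2 to 0.4% into powdered chow, and the study asked which miRNAs differed while myelin was lost and regained. The control group (4 arrays) received a normal diet, the 4wd group (4 arrays) received cuprizone for 4 weeks, the 2dr group (4 arrays) received cuprizone for 4 weeks and then regular diet for 2 days, and the 2wr group (2 arrays) received cuprizone for 4 weeks and then regular diet for 2 weeks. All mice were labelled male, and the labels name neither strain nor age. The corpus callosum was dissected out, and 100 ng of total RNA was labelled with Cy3 for each array. The methods count mice per group, and they name more per group than the 2 arrays that 2wr has here. The labels do not say that each array was a separate mouse, so p-values measure the spread between arrays.

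A miRNA guides the silencing complex to messenger RNAs that pair with its seed, bases 2 to 8 from the 5′ end, and so lowers their translation and stability. The miR-30 family is an abundant, broadly expressed family whose members share 1 seed and differ towards the 3′ end, where miR-30a, miR-30d and miR-30e resemble each other and miR-30b and miR-30c form the other subgroup. It is known for roles in cell differentiation, autophagy and the control of SNAI1, a transcription factor of epithelial to mesenchymal transition. Since whole tissue was measured, fewer cells of a type and less RNA per cell cannot be told apart.

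The mature sequences are shown to make visible what the members share and where they part, with the seed in capitals. Sequences and positions are from RefSeq (GRCm38.p6), which held 3 of the 5 members. The members miR-30b and miR-30d are given by name.
miR-30a: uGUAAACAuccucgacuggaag
miR-30e: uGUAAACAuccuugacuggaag
miR-30c: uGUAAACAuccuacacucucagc
Counted from 1 at the 5′ end, miR-30a and miR-30e differed at 1 of 22 positions (C13U, miR-30a base first). The sequences of miR-30a and miR-30c were identical over the first 12 bases and differed at 5 of the 22 positions compared (C13A, G14C, G18C, G19U and A20C). The seed was held by 4 of 1679 mature miRNAs in the table, and the one outside the family was miR-384-5p, which parts from miR-30a right after the seed.
miR-384-5p: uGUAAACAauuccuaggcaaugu

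The hairpins lie in pairs. Mir30a gives miR-30a (chr1:23272274-23272295, plus strand), and Mir30c-2, on the same strand, gives miR-30c (chr1:23291714-23291736). Mir30e (chr4:120772660-120772681, minus strand) and Mir30c-1, the other source of miR-30c (chr4:120769584-120769606, minus strand), both lie within the span of Nfyc, the gene of a subunit of the CCAAT-binding factor NF-Y. Mir30b and Mir30d are both on chromosome 15. Mature miR-30c is the same from both of its hairpins, so its signal cannot be divided between the loci, while the other strands, named with a star on the array, can be.
miR-30c-1*: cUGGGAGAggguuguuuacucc
miR-30c-2*: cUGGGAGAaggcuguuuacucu
These strands of the miR-30c hairpins differed at 3 positions (G9A, U12C and C22U, miR-30c-1* base first), whereas miR-30a* and miR-30e* differed at 1 (G18A).
miR-30a*: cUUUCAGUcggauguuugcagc
miR-30e*: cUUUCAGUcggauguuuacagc

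The arrays detected 181 to 287 mouse miRNAs each, and the signal summed over miRNAs ranged from 45664 to 173924 units. They lay on 2 slides, each scanned once, so that slide and scan cannot be told apart. Slide 1 held 8 arrays (2 control, 2 4wd, 3 2dr and 1 2wr) and slide 2 held 6 (2 control, 2 4wd, 1 2dr and 1 2wr). Neuron miRNAs were detected on all arrays (6 of 6 on the list), as were 3 of 4 oligodendrocyte miRNAs. The summed oligodendrocyte level (log2 normalized signal) was 1.49 to 3.49 on control arrays, 0.98 to 1.83 on 4wd arrays, 1.14 to 2.81 on 2dr arrays and 1.91 to 1.99 on 2wr arrays, with median differences from control of -1.0, -0.68 and -0.48 and none past the test. Of the 5 myeloid miRNAs 1 was detected on all arrays and 4 were tested. A miRNA was tested if all arrays of some group detected it, so the filter can favour miRNAs that are high in 1 group. The 4 had a median difference from control of 0.96 after cuprizone alone (4wd), 1.50 in 2dr mice and 1.09 in 2wr mice. Of the 4, 1 was past the test at 4wd (0.444% of all were) and at 2dr (0.889% of all). Given the filter, these myeloid values are a description only. The summed myeloid level was -0.07 to 0.19 on control arrays, 0.18 to 0.50 on 4wd arrays, 0.076 to 1.28 on 2dr arrays and 0.28 to 0.53 on 2wr arrays. The part of these lists in the results was not tested. Values below are total signals divided by the 75th percentile of their array and taken to log2, so 1 unit is 2-fold and 0 is the 75th percentile. Levels of different miRNAs come from different probes and were not set against each other.

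All 5 members were detected on all 14 arrays, with total signals from 43.9 to 2200 units, and none of their spots was saturated. No member passed the test (at least 2-fold, with a p adjusted by Benjamini-Hochberg below 0.05) in any of the comparisons with control or between the cuprizone groups. The widest split among the arrays was that between the slides in miR-30b and miR-30c.

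In miR-30a, the control arrays read 0.018, 0.16, 0.37 and 0.17 (replicates 1 to 4). The 4wd arrays read 0.022, 0.085, 0.14 and -0.0077, and the 2dr arrays -0.11, -0.26, 0.19 and -0.27. The 2wr arrays read -0.28 and -0.052, below every control array and every 4wd array, whereas the other groups overlapped with control. Of all 225 miRNAs tested, 3.56% lay below control in this way at 2wr and 9.33% lay below 4wd. The exact permutation test gave p = 0.133 for 2wr against control (two-sided), the smallest that 2 arrays against 4 can give. The group means of miR-30a (± SD) were 0.18 ± 0.14 for the control arrays (n = 4), 0.059 ± 0.065 for 4wd (n = 4), -0.11 ± 0.21 for 2dr (n = 4) and -0.16 ± 0.16 for 2wr (n = 2). Neighbours in this order overlapped.

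In miR-30b, the control arrays read -1.05, -1.46, -0.55 and 0.036. The 4wd arrays read -2.14, -1.93, -0.12 and -0.57. The 2dr arrays read -1.87, -2.25, -0.044 and -1.80, and the 2wr arrays -2.13 and -0.074. Each group thus held a low and a high set of arrays, and all groups overlapped. In every group the high set was the arrays on slide 2.

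The same split was wider in miR-30c. The control arrays read -0.90, -0.52, 1.00 and 1.37, and the 4wd arrays -1.25, -0.93, 1.21 and 1.08. The 2dr arrays read -1.40, -1.62, 1.33 and -1.37, and the 2wr arrays -1.57 and 1.1. No array lay between -0.52 and 1.00, and the only 2dr array above this gap, replicate 3, was the only 2dr array on slide 2. The SD between arrays of a group was accordingly 1.12 (control), 1.30 (4wd), 1.40 (2dr) or 1.89 (2wr).

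In miR-30d, the 4 groups overlapped and spread less, from -0.86 to 0.11 in control and from -1.28 to -0.40 in 2dr. Its 4wd arrays read -1.22, -0.58, -0.37 and -0.61, and its 2wr arrays -1.13 and -0.37. In miR-30e, the control arrays read -1.23, -1.40, -1.25 and -0.85 and the 4wd arrays -1.48, -1.61, -0.61 and -0.95. The 2dr arrays of miR-30e read -1.50, -1.88, -0.97 and -1.96, and the 2wr arrays -1.94 and -1.33. Its groups overlapped as well. In all 5 members, the 3 2dr arrays on slide 1 lay below every control array and the one on slide 2 did not, and 21.3% of all miRNAs tested had at least 3 of the 4 2dr arrays below every control array.

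**Figure D1:**
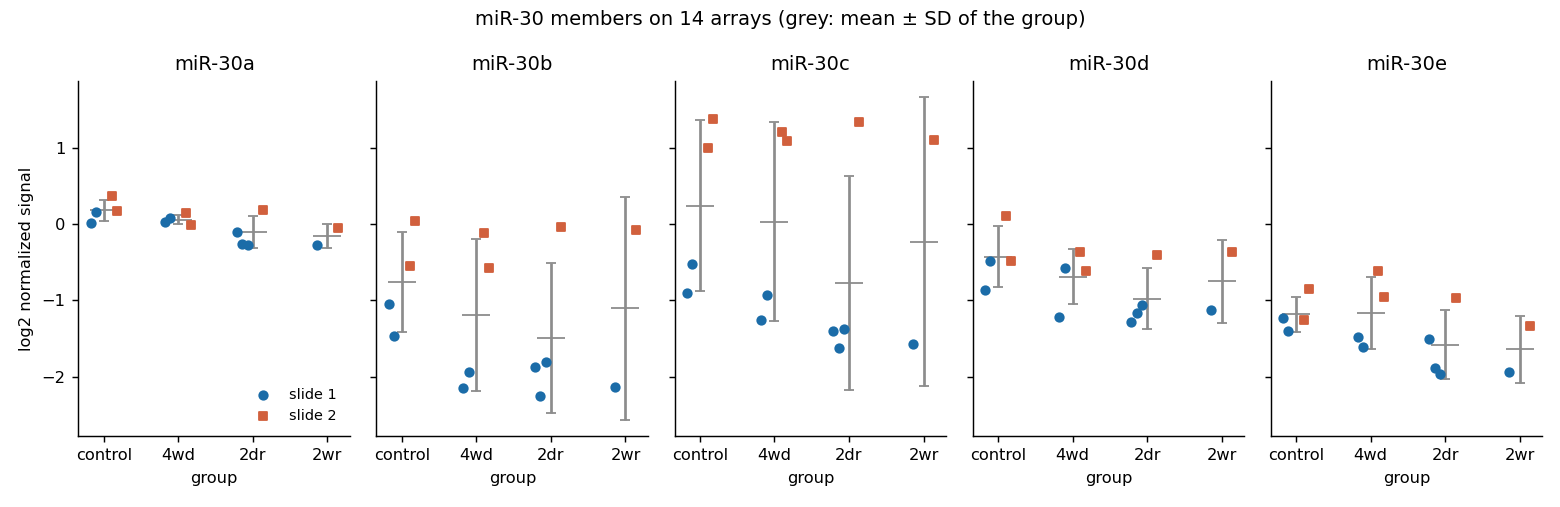
Normalized signal (log2, vertical axis) of the 5 members on each array, by group (horizontal axis), with circles for slide 1, squares for slide 2 and grey bars for the mean ± SD of a group. In miR-30c the slide 2 arrays sit between 1.00 and 1.37 in every group and the slide 1 arrays between -1.62 and -0.52.

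After 4 weeks of cuprizone, 0 of 5 members passed the limma test against control (0.444% of all miRNAs tested did), and 0 of 5 had an unadjusted p under 0.05 (10.2% of all). The log2 differences were -0.12 for miR-30a (SE 0.17), -0.43 for miR-30b (SE 0.62), -0.21 for miR-30c (SE 0.86), -0.26 for miR-30d (SE 0.29) and 0.02 for miR-30e (SE 0.29), with adjusted p from 0.827 to 0.981 in limma. The median of the 5 was -0.21, against 0.031 over all 225 miRNAs. A smaller SE was obtained once slide was a term in the fit, by 4.24 times in miR-30c and 2.57 times in miR-30b, and by 1.27 to 1.61 times in the other members. The differences stayed where they were, because 4wd and control were placed alike on the slides. Their 95% intervals then ran from -0.42 to 0.17 in miR-30a, -0.96 to 0.10 in miR-30b, -0.65 to 0.24 in miR-30c, -0.69 to 0.17 in miR-30d and -0.37 to 0.41 in miR-30e. Each interval lay inside 2-fold in either direction, and none of the 5 passed with slide in the fit either, against 0.444% of all (adjusted p from 0.380 to 0.972 in limma).

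At 2 days of regular diet, the mean over the members differed from control by -0.59 (log2) without slide in the fit and by -0.33 with it, against -0.39 at 2wr in both fits, so that the order of these groups turned with slide. Again 0 of 5 passed (0.889% of all did) and 0 of 5 had an unadjusted p under 0.05 (12% of all). The log2 differences were -0.29 in miR-30a, -0.73 in miR-30b, -1.0 in miR-30c, -0.54 in miR-30d and -0.40 in miR-30e, with adjusted p from 0.422 to 0.521 in limma. All 5 lay below 0, as did 71.6% of all miRNAs tested, whose median was -0.25. When arrays were scaled to the percentile over all mouse miRNAs, that median was 0.027, the mean over the members -0.31 and miR-30a -0.0097. Here the placement on slides was uneven, with 3 of 4 2dr arrays but 2 of 4 control arrays on slide 1, where the members read lower. With slide in the fit the differences became -0.25, -0.34, -0.42, -0.40 and -0.25 in the same order, and the median of the members relative to that of all miRNAs moved from -0.29 to -0.092. The 95% interval for miR-30c narrowed from -2.86 to 0.86 without slide to -0.87 to 0.031 with it. The intervals of the others with slide were -0.55 to 0.055 in miR-30a, -0.88 to 0.20 in miR-30b, -0.84 to 0.035 in miR-30d and -0.65 to 0.16 in miR-30e. No member passed with slide in the fit, against 0.889% of all (adjusted p from 0.316 to 0.444 in limma).

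At 2 weeks of regular diet, 0 of 5 passed (0% of all did), and 0 of 5 had an unadjusted p under 0.05 (0.889% of all). The log2 differences from control were -0.34 in miR-30a, -0.35 in miR-30b, -0.47 in miR-30c, -0.32 in miR-30d and -0.45 in miR-30e (adjusted p = 0.996 for each in limma). All 5 lay below 0, as did 60.9% of all miRNAs. This group had 1 array on each slide, so that the array left in decides the value. The mean over the members differed from control by -0.39 with both arrays, by 0.25 without replicate 1 and by -1.02 without replicate 2. Leaving 1 out sets an array of 1 slide against control arrays of both slides. Against control arrays of the same slide only, the mean differed by -0.64 on slide 1 and by -0.14 on slide 2. Each of these slide values rests on a single 2wr array. With slide in the fit the intervals ran from -0.70 to 0.017 in miR-30a, -0.99 to 0.30 in miR-30b, -1.01 to 0.074 in miR-30c, -0.84 to 0.20 in miR-30d and -0.94 to 0.029 in miR-30e, and 0 of 5 passed (0.444% of all did).

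**Figure D2:**
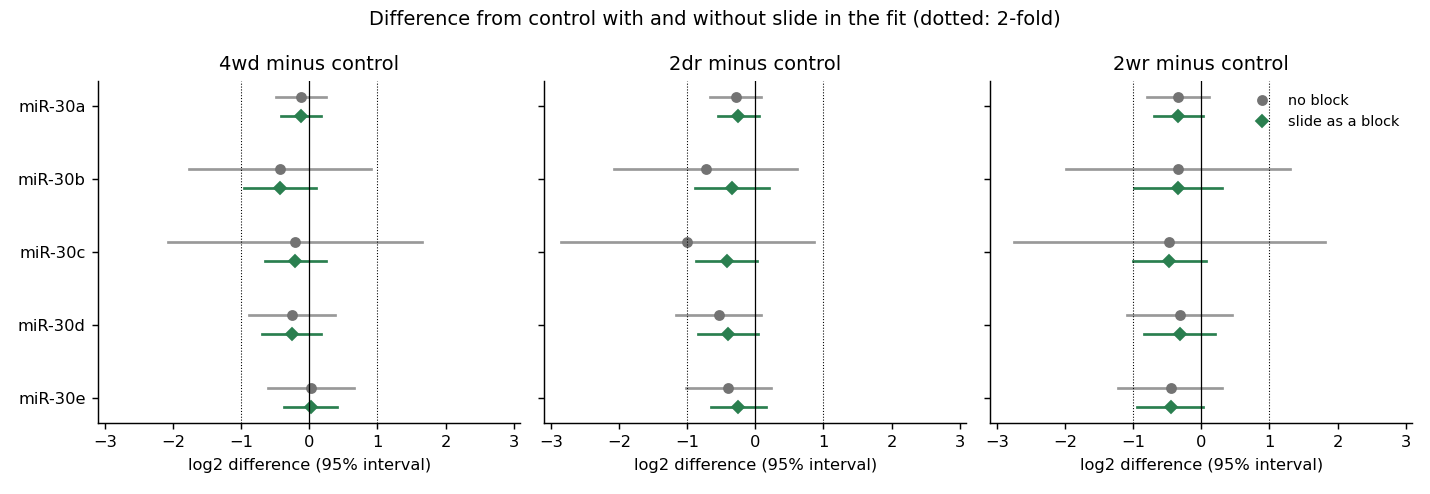
Log2 difference from control (horizontal axis) of each member (vertical axis) for 4wd, 2dr and 2wr mice, as circles without and diamonds with slide as a term in the fit, with 95% intervals and dotted lines at 2-fold. The intervals of miR-30c shrink most, at 2dr from between -2.86 and 0.86 to between -0.87 and 0.031, and every interval includes 0.

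Between the cuprizone groups, 0 of 5 members passed for 2dr against 4wd (0% of all did; 18.2% had an unadjusted p under 0.05, and 0 of 5 members). The same counts of 0 of 5 held for 2wr against 4wd (0% of all passed and 4.89% had an unadjusted p under 0.05) and for 2wr against 2dr (0% and 0.889%). The test over all 4 groups called 0 of 5 members as well, against 0.444% of all miRNAs, with adjusted p of 0.676 for miR-30a, 0.858 for miR-30b, 0.845 for miR-30c, 0.703 for miR-30d and 0.700 for miR-30e in limma. These comparisons share their control or cuprizone arrays and are not independent.

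The slide difference was estimated in the same 14 arrays with group in the fit, and 4 of 5 members read higher on slide 2 past an adjusted p of 0.05, against 18.2% of all miRNAs. It was 2.33 in miR-30c (SE 0.16, 5.02-fold, adjusted p = 9.32e-07 in limma), the 6th highest of 225. It was 1.59 in miR-30b (SE 0.19, 3.00-fold, adjusted p = 9.52e-05), 0.60 in miR-30e (SE 0.14, adjusted p = 0.00948) and 0.57 in miR-30d (SE 0.15, adjusted p = 0.0174). In miR-30a it was 0.19 (SE 0.11, adjusted p = 0.206), while the median over all miRNAs was -0.026. Every slide 2 array read above every slide 1 array in miR-30b and miR-30c, as in 7.56% of all miRNAs, with an exact permutation p = 0.000666 each, the smallest that 6 arrays against 8 can give. The slides overlapped in the other members. The source of the slide difference was not tested.

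The groups were also set side by side within each slide, a view chosen after values were seen. Within slide 1, both control arrays read above all 6 cuprizone arrays in 3 of 5 members, against 8% of all miRNAs. These were miR-30b (control from -1.46 to -1.05, cuprizone groups from -2.25 to -1.80), miR-30c (control from -0.90 to -0.52, cuprizone groups from -1.62 to -0.93) and miR-30e (control from -1.40 to -1.23, cuprizone groups from -1.96 to -1.48). Within slide 2 this held for 0 of 5 members, against 5.78% of all. There miR-30c spanned 1.00 to 1.37 in the 2 control arrays and 1.08 to 1.33 in the 4 cuprizone arrays. The 2dr difference of miR-30c was accordingly -0.75 within slide 1 and 0.14 within slide 2, and that of miR-30b was -0.72 and 0.21. In miR-30a and miR-30d the 2dr difference had the same sign on both slides (-0.30 and -0.077, and -0.49 and -0.21). A test of whether group differences depended on slide called none of the 225 miRNAs, and the members had an unadjusted p from 0.157 to 0.825 and an adjusted p from 0.935 to 0.955 in limma. Slide 2 held 1 2dr array and 1 2wr array, so that these values rest on single arrays. Within slide 1 the control arrays also detected more miRNAs (236 and 246) than any cuprizone array (181 to 231). Within slide 2 the counts overlapped, at 268 and 287 in control and 232 to 283 in the cuprizone arrays. Whether this bears on the members was not tested. The members correlated within slide 1 (r from 0.37 to 0.91), so the 3 of 5 are not separate counts.

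Each member was read by 20 spots on an array, with 3 probes for miR-30a and 2 for each of the others, and the total signal adds them up. In all 5 members, the probe that gave the smallest share of the total had the largest slide difference. In miR-30b the slide difference was 1.33 in the probe with the larger share and 2.92 in the other, whose share of the total was 7.22 to 12.9% on slide 1 and 23 to 27.9% on slide 2. In miR-30c the values were 2.13 and 2.97, and the smaller share was 15.7 to 20.5% on slide 1 and 26.9 to 29.6% on slide 2. In miR-30e the probes differed by 0.36 and 1.42 between slides, and in miR-30d by 0.50 and 0.66. In miR-30a the 3 probes, from the largest share to the smallest, differed by -0.15, 0.33 and 1.17. Taken singly, 6 of 11 probes had slides that did not overlap, including the third probe of miR-30a and the second of miR-30e. By total signal, 7.56% of all miRNAs had every slide 2 array above every slide 1 array. Probes of other miRNAs were not examined, so whether these probe patterns are usual on these arrays was not tested.

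**Figure D3:**
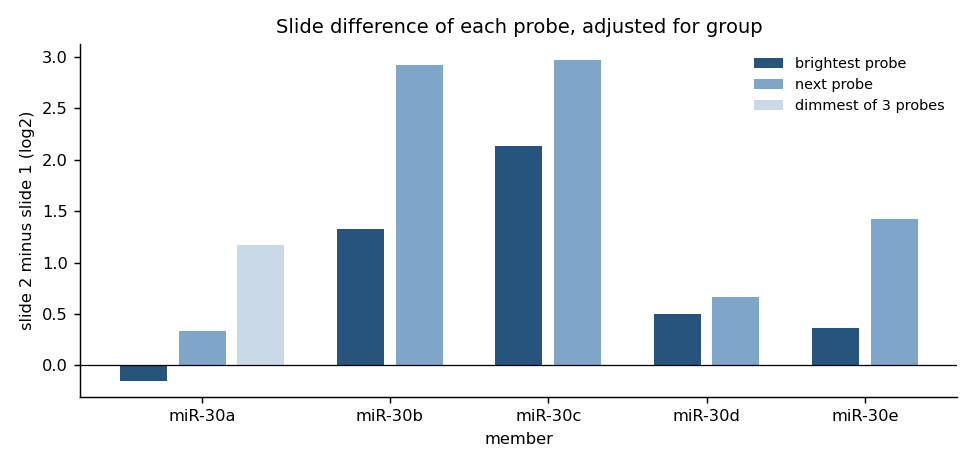
Slide 2 minus slide 1 (log2, vertical axis) for each probe of each member (horizontal axis), adjusted for group, with darker bars for probes that gave more of the total signal of the member. The lightest bar of each member is the tallest, up to 2.97 in miR-30c.

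The group differences of single probes also varied with slide in the fit. At 2dr they were -0.30 and -0.65 in miR-30b, -0.40 and -0.49 in miR-30c, -0.36 and -0.46 in miR-30d and -0.19 and -0.46 in miR-30e. In miR-30a they were -0.15, -0.30 and -0.54. The probe with the smallest share had the lowest value in each member, and each of these 11 values was below 0. With slide in the fit, 74.2% of all miRNAs tested also lay below 0 at 2dr, with a median of -0.25. The 11 probes belong to 5 members and are not separate results. At 4wd the probes of miR-30e differed in sign, at 0.045 and -0.08, while those of miR-30d were both at -0.26.

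A ratio between members on 1 array is the same whatever single factor divides the array, though not under quantile normalization, and it shows unequal change only. The mean of miR-30b and miR-30c minus the mean of miR-30a, miR-30d and miR-30e was -0.62 ± 0.20 on slide 1 (SD, n = 8) and 0.89 ± 0.24 on slide 2 (n = 6), without overlap. By group it was 0.22 ± 0.71 for control (n = 4), 0.02 ± 0.90 for 4wd (n = 4), -0.24 ± 0.86 for 2dr (n = 4) and 0.18 ± 1.30 for 2wr (n = 2), and the groups overlapped. The 4wd mean lay -0.20 from control, the 2dr mean -0.46 and the 2wr mean -0.036, and quantile normalization made these -0.083, -0.37 and 0.034. Within slide 1 it was -0.42 and -0.28 on control arrays, -0.80 and -0.72 on 4wd arrays, -0.84 to -0.48 on 2dr arrays and -0.73 on the 2wr array, so both control arrays lay above the rest. Within slide 2 it was 0.48 and 1.1 in control and 0.78 to 1.1 in the cuprizone arrays, which overlapped.

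For hairpins of a shared locus the slides differed as well. The difference of miR-30c and miR-30e, whose hairpins Mir30c-1 and Mir30e both lie in Nfyc, was 0.43 ± 0.26 on slide 1 (n = 8) and 2.18 ± 0.22 on slide 2 (n = 6). The difference of miR-30c and miR-30a was -1.12 ± 0.23 and 1.05 ± 0.21. Neither pair overlapped between slides. The difference of miR-30b and miR-30d, whose hairpins are both on chromosome 15, was -0.85 ± 0.35 and 0.14 ± 0.42. Here the slides overlapped through control replicate 3, at -0.66. Within slide 1, miR-30c minus miR-30a was -0.91 and -0.69 in control, above the cuprizone arrays (-1.37 to -1.01). Control overlapped with cuprizone there in miR-30c minus miR-30e (0.33 and 0.88 against 0.10 to 0.69). It also overlapped in miR-30b minus miR-30d (-0.97 and -0.19 against -1.35 to -0.59).

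**Figure D4:**
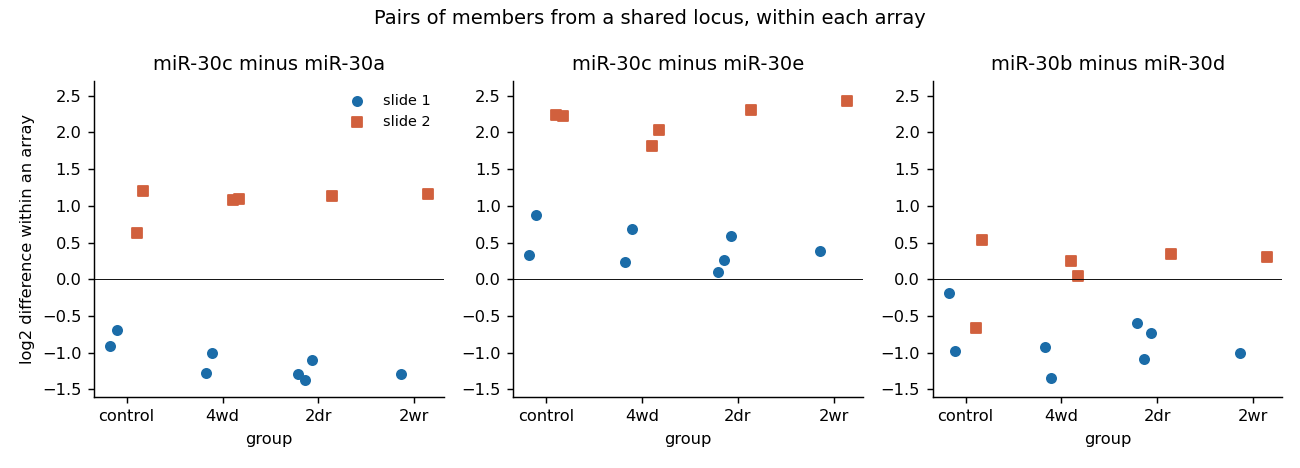
Log2 signal of 1 member minus another on the same array (vertical axis), by group (horizontal axis), with circles for slide 1 and squares for slide 2. Height above or below 0 has no meaning across probes, but between slides the miR-30c minus miR-30e values move from between 0.10 and 0.88 to between 1.82 and 2.43.

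The other strands of the hairpins were measured by their own probes. On all 14 arrays miR-30a* and miR-30e* were detected, miR-30c-1* was detected on 13 and miR-30c-2* on 12, whereas miR-30b* was detected on 1 and was not tested. None of the 4 tested strands passed against control. At 2dr the differences were -0.41 in miR-30a* (SE 0.20, adjusted p = 0.410 in limma), -0.39 in miR-30c-2* (adjusted p = 0.449), -0.32 in miR-30e* (adjusted p = 0.521) and -0.25 in miR-30c-1* (adjusted p = 0.839). With slide in the fit they were -0.34, -0.39, -0.20 and -0.38 in the same order. At 2wr they were -0.33 in miR-30a*, -0.21 in miR-30e*, 0.074 in miR-30c-2* and 0.32 in miR-30c-1*. Between slides miR-30e* differed by 0.49 (adjusted p = 0.0156) and miR-30a* by 0.28 (adjusted p = 0.10), close to the values of miR-30e and miR-30a. By contrast miR-30c-1* differed by -0.54 (SE 0.45, adjusted p = 0.396) and miR-30c-2* by 0.014 (SE 0.19, adjusted p = 0.969), where miR-30c, cut from the same 2 hairpins, differed by 2.33. Total signals were only 1.67 to 12.85 units in miR-30c-1* and 2.66 to 18.04 in miR-30c-2*, against 67.86 to 2200 in miR-30c. Both star strands thus read near the limit of detection, which limits what their slide differences can show.

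The miRNA outside the family with the same seed, miR-384-5p, was looked at because of its sequence and after values were seen. It was detected on all 14 arrays and did not pass against control, at -0.061 in 4wd (SE 0.33, adjusted p = 0.981 in limma), -0.41 in 2dr (SE 0.33, adjusted p = 0.521) and -0.19 in 2wr (SE 0.41, adjusted p = 0.996). Its slide difference was 0.56 (SE 0.21, adjusted p = 0.0612), near those of miR-30d and miR-30e.

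Of 216 tested miRNAs outside the family, those most like the mean of the 5 members over the 14 arrays were miR-9 (r = 0.95), miR-150 (r = 0.95), miR-92b (r = 0.94), miR-805 (r = 0.94) and miR-541 (r = 0.93), chosen by Pearson correlation and given as a description. All of them read higher on slide 2, by 1.46 to 3.41, and so shared the slide split of miR-30b and miR-30c. Within slide 1 (8 arrays) the r was 0.61 for miR-9, miR-150 and miR-92b and 0.50 for miR-541. There miR-805 did not vary, since its values all sat at the floor set before the log2 (-9.15). Its slide difference of 2.92 is thus measured from that floor. Within slide 2 (6 arrays) the r was 0.53 for miR-9, 0.048 for miR-150, -0.51 for miR-92b, 0.17 for miR-541 and 0.29 for miR-805. Among the members themselves, the 10 pairwise r values ran from 0.37 to 0.91 within slide 1 and from -0.50 to 0.82 within slide 2.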

How the data were processed

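In the scanner files as deposited, each spot has a signal intensity, on a linear scale, and every miRNA has a total over its spots. The authors' image software (Feature Extraction 10.5.1.1 in the file headers) subtracted background, added up the probes of a miRNA and called it detected or not. A series table that the authors deposited, in log2, covers the same arrays and served as an alternative only. The array design was of another build than GRCm38.p6, so positions come from RefSeq and none from the files.

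Total signals were scaled to their array's 75th percentile, taken over 170 miRNAs that every array detected, given a floor of 0.00176 (-9.15 as log2) and taken to log2. Testing was limited to the 225 of 566 miRNAs that all arrays of some group detected. The 4 groups were fitted together with limma 3.58.1 (R 4.3.3). A call needed at least 2-fold and a p below 0.05 after Benjamini-Hochberg adjustment over the 225. Exact permutation tests used scipy 1.17.1. The fit was tested on simulated data. The number of arrays limits the precision.

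The named miRNAs were the 5 members, their star strands and the 5 tested miRNAs that correlated best with the mean of the members. Members and lists were chosen with earlier results of these data known. Alternatives were slide as a term or taken singly, replicate number as a block, other scalings, background correction, floors, filters and summaries, another variance model, the methods' ANOVA with Tukey test, no minimum fold, pairs of groups alone and leaving out each array. The test of group by slide and the values of single probes were added after seeing the data.

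Arrays that share a replicate number across groups form 18 pairs. Deviations from the group mean correlated by over 0.1 in 13 of these and fell as low as -0.61. Replicates 1 and 2 lay on slide 1 and replicates 3 and 4 on slide 2, except 2wr replicate 2 and 2dr replicate 4. A shared number thus mostly meant a shared slide, and these correlations cannot tell the 2 apart. A shared number was not read as pairing. The 2 closest arrays differed by a median of 0.22 (log2).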

Additional observations from a re-analysis of the deposited data

Results flagged for a closer look

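In miR-30c, replicate 3 of the 2dr group read 1.33 where the other 2dr arrays read -1.62 to -1.37, and its gap to the nearest of them was 0.91 of the range of the group. This array was the only 2dr array on slide 2, where all 6 arrays read 1.00 to 1.37. It was the only such array among the 15 groups of 4 arrays examined (5 members in 3 groups), and chance gives about 1 in 20 where arrays do not split by slide. Control and 4wd had 2 arrays on each slide, so a slide split could set a single array apart only at 2dr.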

How the results depend on the processing

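The count of members called was 0 in every comparison under every alternative run, with adjusted p against control from 0.146 to 1. Of single member differences from control, 9 of 255 changed sign under alternatives other than leaving out an array or taking 1 slide, and 11 of 210 when an array was left out. With normexp the 4wd differences of miR-30b, miR-30c and miR-30d became 0.17, 0.048 and 0.071 and the mean of the members 0.11, but normexp moved the median of all miRNAs to 0.83 at 4wd and called 82 of all miRNAs there, where each other setting called 0 or 1. All settings called 0 to 2 at 2dr and 0 or 1 at 2wr. Without scaling that median was -0.93, the mean of the members -1.17 and miR-30e -0.95. The 4wd difference of miR-30e, 0.02, became -0.022 with the percentile over all miRNAs, -0.063 with quantile normalization, -0.06 in the authors' values and -0.23 within slide 1. Within slide 2 the mean of the members at 2dr was 0.03, and miR-30b, miR-30c and miR-30e were 0.21, 0.14 and 0.079 at 2dr, with miR-30b at 0.18 at 2wr. With the replicate number as a block, miR-30b became 0.29 and miR-30c 0.47 at 2wr, and it changed no call. That block set 2wr replicate 2, on slide 2, beside replicate 2 of the other groups, all on slide 1. At 2wr it therefore did not separate the group difference from the slide difference.

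Leaving out each array in turn, the mean of the members at 2wr ranged from -1.02 to 0.25 against control, from -0.82 to 0.45 against 4wd and from -0.43 to 0.84 against 2dr, and the difference of the ratio of miR-30b and miR-30c to the other members from -0.95 to 0.88 against control, with the ends set by which 2wr array remained. Single members ranged at 2wr from -1.37 to 0.68 in miR-30b, -1.81 to 0.87 in miR-30c and -0.70 to 0.062 in miR-30d, and at 4wd from -0.60 to 0.22 in miR-30c and -0.16 to 0.17 in miR-30e. The mean of the members ranged at 2dr from -0.93 (without 2dr replicate 3) to -0.44 and at 4wd from -0.41 to 0.0067 (without 4wd replicates 3 and 1), and miR-30c at 2dr from -1.70 (without 2dr replicate 3) to -0.62 (without control replicate 4). In the authors' values the mean at 2dr was -0.33. These values cover few arrays, and the cause of each change of sign was not tested. All members were detected on all arrays, with a lowest total signal of 43.9 units.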
